A study of Mus musculus with 4 samples.

Results

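DDX5 peaks in the 5′ untranslated regions (UTRs), coding exons and 3′ UTRs of messenger RNAs were described here. They came from enhanced crosslinking and immunoprecipitation (eCLIP) of DDX5 in mouse Th17 cells, the helper T cells that make interleukin-17. The members were all peaks that the authors' annotation places in a 5′ UTR, a coding exon (CDS) or a 3′ UTR, less those overlapping an annotated snoRNA, scaRNA, snRNA or rRNA on the same strand by at least 1 nt. They numbered 251 of the 900 reproducible peaks (27.9%, exact Clopper-Pearson 95% interval 25 to 30.9) and named 163 genes, with the jointly named Mtcp1 and Cmc4 counted as 1. Of 253 peaks in the 3 classes, 2 were left out by this rule. These were a 31-nt peak named for Grcc10, which lay wholly within the U7 snRNA gene Rnu7 (log2 enrichment 3.28), and a 70-nt peak named for 2410002F23Rik, which lay wholly within Gm23991 (3.91).

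All libraries came from wild type C57BL/6 cells. Naive CD4 T cells of 8-week-old female mice were stimulated through CD3 and CD28 by antibodies and cultured for 72 h with the cytokines IL6 and TGFb, and the text of the series speaks of 2 mice of 8 to 10 weeks. The groups were 2 immunoprecipitates (IP) made with an anti-DDX5 antibody and 2 inputs without antibody, and no DDX5-deficient sample was among them. For every peak the deposited list holds a log2 fold of IP over input and a −log10 p, both the authors' own values for the replicates together. No spread between replicates can therefore be given, the depth of each library is unknown, and every SD or quartile below is over peaks.

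DDX5 is an ATP-dependent RNA helicase of the DEAD-box family that acts in transcription, splicing and the processing of small RNAs. The 5′ UTR precedes the start codon, is scanned by the ribosome during initiation, and is often rich in G and C in mammals, which favours stable folds. Coding exons are read by the ribosome, and the 3′ UTR carries many of the elements that set the stability of an mRNA. A peak marks where crosslinked RNA fragments were more frequent in the IP than in the input, and it does not show what DDX5 did there.

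The sequence under the peaks could be read where a peak overlapped a RefSeq window around a gene start (GRCm38.p6, 250 bases before to 50 after the start, of which the peak had to cover 30). This gave 23 windows of 30 bases in 21 genes, 20 of them in 5′ UTR peaks and 3 in coding exon peaks. Each window is the 30 bases at the 5′ edge of the overlap, and the rest of the peak was not read. Their first bases lay from −204 (Ptp4a2) to 20 (Srebf2) relative to the RefSeq start. Many windows lay wholly before that start, among them those of Mier1, Ski, Eif5a, Hnrnpf and Insl3. The windows below are 8 with runs of G, which were frequent among the 23, and 3 with few or none, for contrast. They are DNA letters from 5′ to 3′ on the strand of the gene, and capitals mark every run of at least 3 G.
Mier1: gccgagcGGGGcgccgcgaGGGGGcggagc
Srebf2: ggcggtgaggcggtaccaggtGGGGGctgt
Ski: cggcggaggccgtGGGGGcccGGGcgcacg
Eif5a: gaggtgcggagaggcGGGtgcaGGGcccgg
Pum2: gccggaaGGGGGtgtgcgccggcGGGGGag
Tab2: GGGcggaGGGaggcaGGGcggccgtgcgag
Mxi1: GGGGcGGGcGGGGcGGGtcttgccgctgct
Mki67: cgcGGGcggcGGGagtgcGGGtctggtcgg
Hnrnpf: ccgaggcgcaggagcctcccatcccccgcc
Insl3: tgctgcttgcctgtgttcccgccaaggccc
Rack1: ctttttctccacaGGGtcgtggtggcagcc

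In mm10 (GRCm38) coordinates the Mier1 window is chr4:103119326-103119355 on the plus strand, Srebf2 chr15:82147289-82147318 (plus), Ski chr4:155222555-155222584 (minus) and Eif5a chr11:69920997-69921026 (minus). The Pum2 window is chr12:8674654-8674683 (plus), Tab2 chr10:7956117-7956146 (minus), Mxi1 chr19:53329404-53329433 (plus) and Mki67 chr7:135716344-135716373 (minus). The windows shown for contrast are Hnrnpf at chr6:117917226-117917255 (plus), Insl3 at chr8:71689173-71689202 (plus) and Rack1 at chr11:48800360-48800389 (plus). The Ski window belongs to a coding exon peak and the other 10 to 5′ UTR peaks. Peak log2 enrichments in these windows run from 6.21 in Srebf2 to 4.07 in Rack1. Rack1 codes for a scaffold of the small ribosomal subunit, and its window starts at the annotated gene start with a run of pyrimidines.

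On the strand of the gene, GGG occurred in 20 of the 23 windows (87.0%), against 39.8% of all 32851 RefSeq promoter windows read at the same positions and 43.1% of the 21262 of protein-coding genes. GGCGG occurred in 11 windows (47.8%), against 8.06% and 10.9%. CCC, which is GGG on the opposite strand, occurred in 8 windows (34.8%), against 35.8% and 38.4%. A GGCGG can share bases with a GGG, so these counts overlap. GC content averaged 79.3% over the windows and lay between 60.0% and 90.0%. At those positions it was 55.6% in all promoters and 58.6% in those of protein-coding genes. G alone made up 51.6%, against 28.6% and 30.3%. These windows lie near gene starts, are not a sample of all members and carry no test. At positions before the start, the promoter windows set beside them need not be transcribed, so the comparison is not one among RNAs. A match of letters is a description and marks no site.

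The 5′ UTR class was the largest, with 147 peaks in 100 genes (58.6% of members, 52.2 to 64.7). Coding exons held 93 peaks in 65 genes (37.1%, 31.1 to 43.4) and 3′ UTRs 11 peaks in 9 genes (4.38%, 2.21 to 7.71). Joining peaks that touched left 133, 87 and 9 sites. Joining those at most 50 nt apart left 119, 80 and 9. Intervals cover counting error only, and peaks of a gene are not independent. Of the 163 genes, 115 had 1 member peak and 19 had 3 or more. Of the 48 genes with more than 1 member peak, 11 carried them in more than 1 class. A peak in an intron of a protein-coding gene, outside small RNA genes, was also found in 46 of the 163. Among all 449 gene names in the list, 151 had such an intron peak near a splice site and 126 had one deeper in an intron. A gene can be in both of these counts. The share of all names with either kind was not counted, so whether 46 of 163 is many or few is not known.

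The ranges of enrichment over input overlapped between the classes. The log2 enrichment of 5′ UTR peaks had a lowest value of 3.0, a median of 5.28 (38.9-fold) and a highest of 6.77. Coding exon peaks ran from 3.40 to 6.72 with a median of 5.08 (33.9-fold), and 3′ UTR peaks from 3.92 to 7.09 with a median of 5.43. Their quartiles overlapped, at 4.88 to 5.82, 4.50 to 5.65 and 4.62 to 5.67. The median over all members was 5.22, against 5.31 over all 900 peaks, which include them. Outside small RNA genes it was 5.38 over intron peaks near a splice site and 5.62 over those deeper in introns. Values of at least 6 were reached by 26 of the 5′ UTR peaks (17.7%) and 11 of the coding exon peaks (11.8%). Peaks were 5 to 171 nt wide in 5′ UTRs (median 72), 20 to 179 nt in coding exons (median 75) and 8 to 102 nt in 3′ UTRs (median 74). The values are coarse, since 54 member peaks had a log2 value that a peak of another gene shared exactly.

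**Figure D1:**
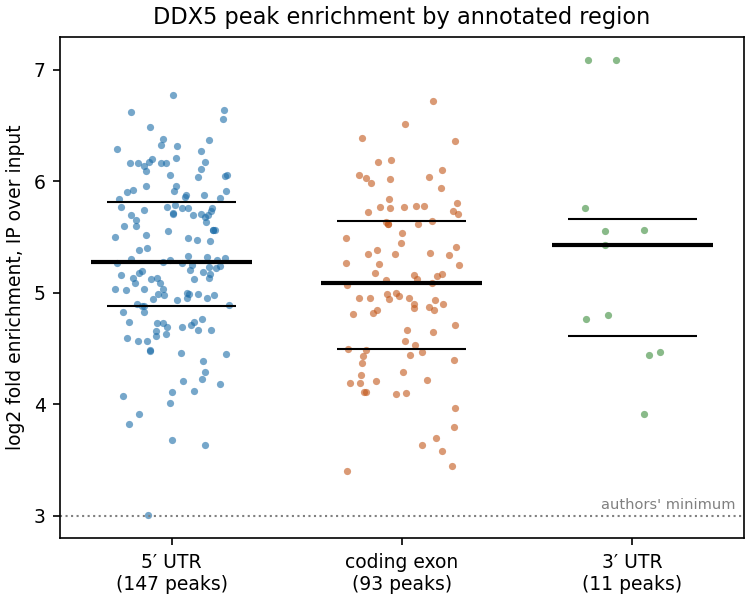
Log2 fold enrichment of IP over input (vertical axis) for each member peak, by annotated region. Points are peaks spread sideways at random, thick lines are medians and thin lines quartiles. The medians of 5.28, 5.08 and 5.43 lie within the quartiles of each other class, and the highest pair of points in the 3′ UTR class belongs to Adarb2.

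The height of peaks was compared by gene, each gene giving the mean of its peaks in a class and genes with peaks in both classes being left out. The 5′ UTR genes had a median of 5.19 (91 genes) and the coding exon genes of 4.98 (56 genes). The shift between them was 0.22 on the log2 scale (Hodges-Lehmann estimate, 95% interval −0.02 to 0.47), which did not pass the threshold (exact two-sided Wilcoxon rank-sum test, adjusted p = 0.106 over 3 comparisons). Against intron peaks near a splice site, the class next to exons, the 5′ UTR genes differed by −0.04 (83 and 134 genes, medians 5.18 and 5.31, interval −0.24 to 0.14, exact Wilcoxon adjusted p = 0.646). The direction turned with the peaks in small RNA genes put back (shift 0.090, exact Wilcoxon adjusted p = 0.367). Coding exon genes lay lower than those intron genes (shift −0.32, interval −0.55 to −0.09, medians 4.98 and 5.35, 53 and 139 genes, exact Wilcoxon adjusted p = 0.0200). That difference no longer passed the threshold with peaks of a log2 enrichment of at least 4 (shift −0.25, exact Wilcoxon adjusted p = 0.0685), nor with the peaks in small RNA genes put back (shift −0.15, adjusted p = 0.345). Every peak in the list had reached a log2 fold of 3, so the compared heights were cut off from below in all classes. The p-values are over genes of this list and measure no spread between replicates. A fold over input can depend on the input coverage, which was not available, so its part was not tested.

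Most members lay at the 5′ end of transcripts, also when they were in coding sequence. A first exon held 146 of the 147 5′ UTR peaks, which follows in part from the class. It also held 72 of the 93 coding exon peaks (77.4%, 67.6 to 85.4), in 49 of 65 genes. A first exon here is that of any overlapping transcript of the class. With only the longest coding transcript among those of the class, the count was 66 (71.0%). That transcript need not be the longest coding one overlapping the peak, so 71.0% is no share for the longest transcript of each gene. The class itself adds to this share, since every member peak over a start codon was classed as coding exon and lay in a first exon. The single 5′ UTR peak outside a first exon was the highest of Znrf1. Measured from the nearest start of a transcript of its class, the midpoint of a 5′ UTR peak lay at a median of 105 nt (quartiles 26.5 and 250.2) and that of a coding exon peak at 272.5 nt (113.5 and 657.5), along the genome and introns included. Within 200 nt of such a start lay 104 5′ UTR peaks (70.7%) and 35 coding exon peaks (37.6%). Measured from the start of the longest overlapping coding transcript, 70.7% of 5′ UTR and 59.1% of coding exon peaks lay within 1000 nt, beside 83.6% of intron peaks near a splice site (95% intervals 62.7 to 78.0, 48.5 to 69.2 and 78.0 to 88.3). Measured from the nearest start of any coding transcript, the order of the first and the last turned, with 93.9% of 5′ UTR, 79.6% of coding exon and 86.4% of near-splice intron peaks within 1000 nt. The 3′ UTR peaks lay 1404.5 to 564146 nt from the nearest start. A start codon was overlapped by 17 coding exon peaks (18.3%, 11 to 27.6), among them those of Ski, Aebp2, Mbd2, Rpl4 and Rack1, and 2 overlapped a stop codon (Tardbp and Snrnp70).

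**Figure D2:**
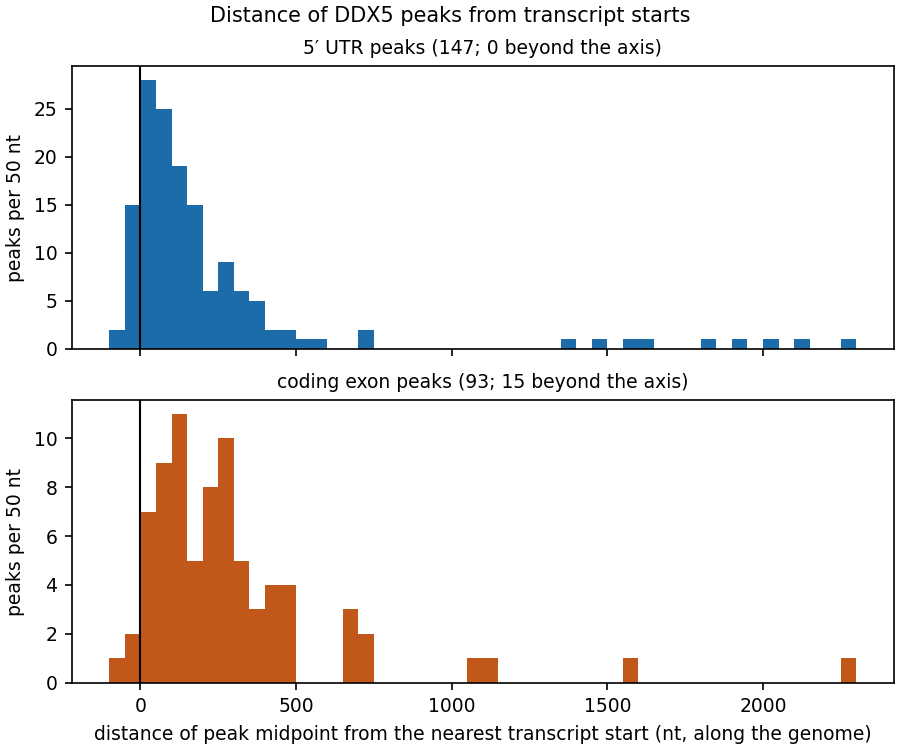
Number of peaks per 50 nt (vertical axes) by distance of the peak midpoint from the nearest transcript start of its class, in nt along the genome (horizontal axis), for 147 5′ UTR peaks (upper) and 93 coding exon peaks (lower). Both pile up close to the start at 0, with medians of 105 and 272.5 nt, and 15 coding exon peaks lie beyond the axis.

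Many of these exons were not exons in every transcript. Of the 5′ UTR peaks, 86 lay wholly inside an intron of another transcript on the same strand (58.5%, 50.1 to 66.6), in 55 of the 100 genes. A 5′ UTR of every overlapping transcript was touched by 46 of the peaks (31.3%). Some of these 46, such as that of Siah1a, also reached into an intron. Without Satb1 the share inside an intron was 54.1%. The 5′ UTR peaks inside such an intron had a median log2 enrichment of 5.51 (quartiles 4.99 and 5.96) and the other 61 had 5.13 (4.73 and 5.60). Without the 14 Satb1 peaks, all of which were among the former, those inside an intron had a median of 5.32 (4.94 and 5.93, 72 peaks). Of the coding exon peaks, 30 lay inside an intron of another transcript (32.3%, 22.9 to 42.7). An exon-intron boundary of the same transcript was crossed by 16 5′ UTR peaks (10.9%), with Furin, Eif5a, Ezh2 and Stat5b among their genes. It was crossed by 17 coding exon peaks (18.3%), with Ago2, Kmt5a, Malt1 and Jak3 among theirs. Which of the overlapping transcripts was bound cannot be told apart from the peak list.

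**Figure D3:**
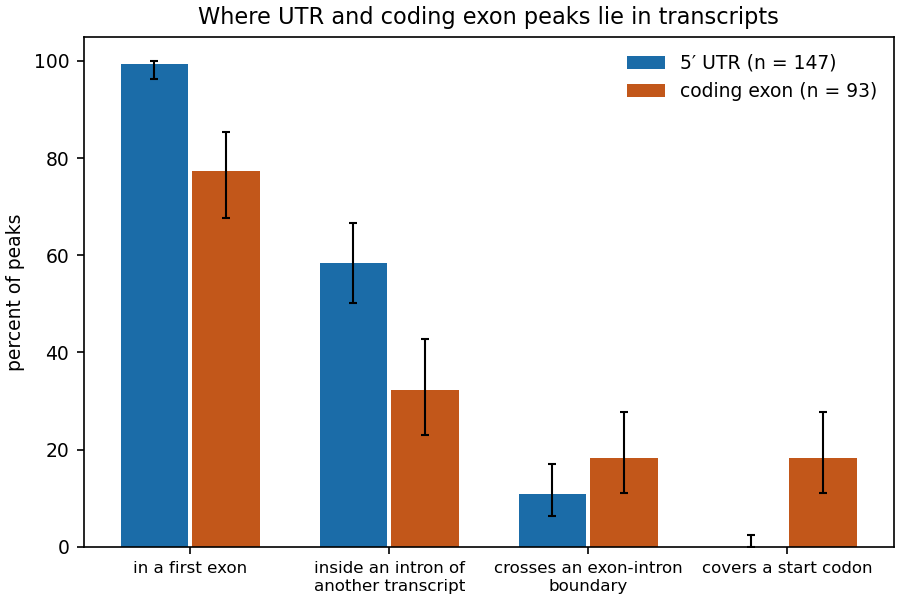
Percent of peaks (vertical axis) in 4 transcript contexts for 5′ UTR peaks (n = 147) and coding exon peaks (n = 93). Bars are shares and error bars exact Clopper-Pearson 95% intervals. First exons, of any transcript of the class, hold 99.3% of 5′ UTR and 77.4% of coding exon peaks. Inside an intron of another transcript lie 58.5% and 32.3%. Peaks over a start codon were all classed as coding exon.

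Several of the 5′ UTR genes with the most or the highest peaks code for regulators of transcription. Satb1, which folds chromatin in T cells, had 14 of the 147, on the minus strand of chromosome 17. Of these, 11 lay between 51811954 and 51813642 (log2 enrichment 4.76 to 6.62, median 5.86) and 3 between 51831727 and 51832602 (5.50 to 6.04). All 14 were in first exons of some transcripts and inside introns of others. Rbpj, the DNA-binding partner of Notch, had 4 peaks on chromosome 5 between 53590648 and 53591199, with log2 values of 6.31, 5.77, 5.73 and 5.68. Single high 5′ UTR peaks were found in Rara, a retinoic acid receptor (6.64, chromosome 11, 98960373 to 98960513), and Rora, a nuclear receptor of the Th17 programme (6.49). Lin54, a DNA-binding subunit of a cell cycle complex (6.29), and Srebf2, the regulator of cholesterol synthesis (6.21), also had 1 each. In introns, Satb1 had 6 further peaks, Rora 4, Rbpj 3 and Rara 2, and Lin54 and Srebf2 had none. The transcriptional repressor Cic had 3 weaker peaks, at 4.89, 4.49 and 3.68.

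Others code for enzymes and signalling proteins. Furin, a protease that matures TGF-β and other proproteins, had 4 peaks on chromosome 7 between 80402503 and 80402773, beside 5 peaks in introns. The log2 values of the 4 were 6.77, 6.56, 5.69 and 5.18, and the first of these (109-fold) was the highest of the class. Znrf1, a ubiquitin ligase, had 4 peaks (5.70, 5.40, 4.67 and 4.22), Rhoq, a small GTPase, had 3 (6.28, 5.13 and 4.95) and Peli1, a ubiquitin ligase of immune receptor signalling, had 2 (6.14 and 5.13). Pnck, which codes for a calcium-dependent kinase, also counted 4 peaks, but they were adjoining pieces of 5 to 19 nt in 1 stretch of chromosome X (73659262 to 73659299), all at 6.17. These 4 and 1 of Furin were the only members at the −log10 p ceiling of 400, which 72 of all 900 peaks reached. RNA-binding proteins had Hnrnpf at 6.38 and 5.75 and Matr3, a nuclear matrix protein, at 6.32 and 5.92. The Matr3 peaks also overlapped Gm28285 on the same strand.

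In coding exons, several of the genes with the most or the highest peaks code for chromatin or signalling proteins. Mbd2, a reader of methylated DNA, had the most, with 5 peaks on chromosome 18 between 70568398 and 70568825 (5.84, 5.54, 5.27, 4.99 and 4.44), all in a first exon. Arid1a, a subunit of the SWI/SNF remodeller, had 4 (6.04, 5.16, 4.95 and 4.19), and Aebp2, a partner of the Polycomb complex PRC2, had 3 (6.72, 5.65 and 5.50), the first of which was the highest of the class at 105-fold. Ski, a repressor of TGF-β signalling, had 3 on chromosome 4 between 155222261 and 155222584 (6.36, 6.03 and 5.71) beside 22 peaks in introns. Map3k1, a kinase upstream of JNK, had 3 (5.77, 5.34 and 5.26), and Malt1, a protease of T cell receptor signalling, had 2 (6.02 and 5.78). Kmt5a, a histone H4 methyltransferase, had 2 at 6.05 and 5.77. Otud5, a deubiquitinase, had 2 at 6.39 and 5.73, and the ubiquitin ligase Rnf149 had 1 at 6.20. Tmem65, a membrane protein, had 1 at 6.18. All coding exon peaks of these genes were in first exons, and the 6.52 of Scrt1, a zinc finger repressor, was not. Pabpn1, a nuclear poly(A)-binding protein, had 3 (5.18, 4.88 and 4.21), which Gm20521 on the same strand also covered.

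The 21 coding exon peaks outside first exons named 18 genes and had a median log2 enrichment of 4.90, against 5.16 for the 72 within. Genes of translation and the cytoskeleton were among them. Eef2, the elongation factor that moves the ribosome along, had 3 such peaks (4.39, 4.11 and 4.10), Rpl4, a protein of the large ribosomal subunit, had 2 (4.53 and 4.49) beside its start codon peak at 4.82, and Actb, the cytoplasmic β-actin, had 1 at 3.96. Jak3, a kinase of cytokine receptors, had 1 at 5.36, and Ldb1, a transcriptional adaptor, 1 at 5.78. The class I histocompatibility genes H2-K1 (5.45), H2-Q4 (4.90) and H2-D1 (3.58) each had 1 peak. Their sequences are alike, so the assignment of reads among them is uncertain. The same holds for genes with processed pseudogenes such as Rpl4 and Eef1a1 (3.40). The Eef1a1 peak was in a first exon, but not in that of the longest coding transcript of the class.

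The 3′ UTR class was small, and its values are given for all 9 genes. Adarb2, a member of the RNA-editing deaminase family, had the highest at 7.09 (137-fold), in 2 adjoining pieces of 13 and 8 nt on chromosome 13 (8767043 to 8767063) with equal values. The 13-nt piece crossed an exon-intron boundary. Genes of cytokine signalling were Socs1, the feedback inhibitor of JAK kinases (5.43 and 4.44), and Il4ra, a receptor chain for interleukin-4 (5.56). Grap2, an adaptor of T cell receptor signalling, had 5.57 and Abi3, an actin regulator, 5.77 in an 18-nt peak. Actr2, a subunit of the actin-nucleating Arp2/3 complex, had 4.80, Laptm5, a lysosomal protein of blood cells, 4.77, Furin 4.47 and Actb 3.92. Of these genes, Socs1 and Adarb2 had 2 peaks each and the others 1.

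**Figure D4:**
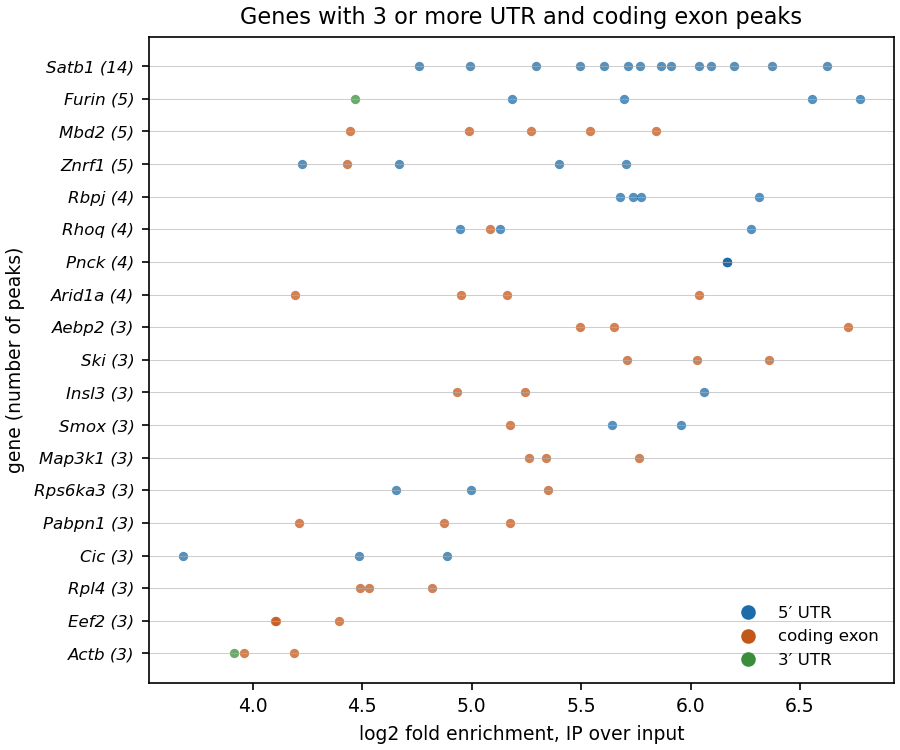
Log2 fold enrichment of IP over input (horizontal axis) of every member peak in the 19 genes with 3 or more such peaks (vertical axis, number of peaks in brackets). Each point is a peak, coloured by region. The 14 Satb1 peaks run from 4.76 to 6.62, those of Cic, Rpl4, Eef2 and Actb lie below 5, and the 4 Pnck points coincide at 6.17.

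In 9 genes both the 5′ UTR and a coding exon carried a peak, and neither was higher throughout. The mean log2 enrichment of the 5′ UTR peaks was above that of the coding exon peaks in Insl3 (6.06 and 5.09), Smox (5.80 and 5.17), Znrf1 (5.0 and 4.43), Chsy1 (5.77 and 5.35) and Rhoq (5.45 and 5.08). It was below in Ago2 (5.22 and 6.11), Rack1 (4.07 and 4.65), Rps6ka3 (4.82 and 5.35) and Wdr26 (4.01 and 4.22). Ago2 codes for the slicing Argonaute protein, Smox for spermine oxidase, Chsy1 for a chondroitin synthase and Rps6ka3 for a ribosomal S6 kinase. Insl3, a hormone gene, lies within the RefSeq span of Jak3 on the same strand, and its 3 peaks also fell in Jak3 transcripts, so the 2 genes cannot be told apart there. In Actb the coding exon mean was 4.07 and the 3′ UTR value 3.92. In Furin the 5′ UTR mean was 6.05 and the 3′ UTR value 4.47.

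Members were counted in gene lists, with no expression level to set beside them. Over all 21896 protein-coding RefSeq symbols, 0.740% had a member peak and 1.78% had any of the 900 peaks, and of the 389 with any peak, 41.6% had a member peak. No list was tested against these shares. T cell identity and receptor signalling genes had a member peak in 5 of 34 (8 had any peak), with 22 peaks at a median log2 enrichment of 5.74, against 5.22 over all members. Satb1 gave 14 of these, and without it the median of the other 8 was 5.34. The other genes were Ets1 (5.33 and 4.95), Bach2 (5.13), Malt1 and Map3k1. TGF-β signalling genes had 4 of 18 (6 with any peak), with 11 peaks at a median of 5.69, in Furin, Ski, Pmepa1, an inhibitor of SMAD signalling (5.57 and 5.46), and Smad7, the inhibitory SMAD (5.62). Cytokine receptor and JAK-STAT genes had 4 of 28 (9 with any peak, median 5.36), namely Il4ra, Socs1, Jak3 and Stat5b, a transcription factor downstream of IL-2 (5.25). The Th17 programme had 2 of 26 (3 with any peak), Rora and Ahr, the aryl hydrocarbon receptor (4.93), and both were 5′ UTR peaks.

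Of translation factors, 6 of 26 carried a member peak and 10 any peak, with a median of 4.11 over 9 peaks. Eif5, which triggers GTP hydrolysis at the start codon, had a 5′ UTR peak at 6.17 and Eif5a, an elongation factor, one at 5.85. Eef2, Eef1a1, Eif4g3 (4.47) and Pabpc1, the cytoplasmic poly(A)-binding protein (3.63 and 3.0), lay below 5. The hnRNP and related list had 4 of 32 (8 with any peak, 6 member peaks, median 5.83), where Taf15 (4.94) and Tardbp (4.81) had coding exon peaks beside the 5′ UTR peaks of Hnrnpf and Matr3. No gene of the SR splicing factor list had a member peak, and 6 of its 26 had a peak elsewhere. Chromatin regulators had 4 of 36 (7 with any peak, median 5.16), with Arid1a, Ezh2, the methyltransferase of PRC2 (5.50 in the 5′ UTR), Suz12, another PRC2 subunit (4.29 in a coding exon), and the remodeller Chd7 (5.20 in the 5′ UTR).

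Smaller counts were found in the remaining lists. Activation and early response genes had 2 of 33 (4 with any peak), Jund in its coding exon (5.39 and 5.13) and Myc in its 5′ UTR (4.74), both transcription factors. Cell cycle genes had 1 of 27 (3 with any peak), the proliferation marker Mki67 (4.95). Ubiquitin and folding genes had 2 of 18 (2 with any peak), the conjugating enzyme Ube2d3 (5.76) and the chaperone Hsp90ab1 (4.71), and cytoskeleton and housekeeping genes 2 of 24 (4 with any peak), Actb and the glycolytic enzyme Aldoa (3.82). None of the 10 B cell, 12 myeloid, 10 NK and cytotoxic or 9 erythroid markers had any peak. The T cell markers Cd3e, Cd3d, Cd3g and Cd4 had none either, so the list gives no check of the cell type by these genes, and an mRNA without a peak may still be bound.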

How the data were processed

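Per the submitters' processing notes, cutadapt 1.9.1, STAR 2.4.0i and SAMtools 1.4.1 were used with mm10. Per the deposited settings, each IP was normalised to its own input, the 2 replicates were joined by the irreproducible discovery rate, and both the log2 fold and the −log10 p had to reach 3. The sources used here do not give the peak caller or the annotation release. The log2 fold enrichment and the −log10 p of each peak are the authors' deposited values, 1 per peak for both replicates, so depth and replicate spread could not be used. Whether the replicates are separate mice is not stated.

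Starts, read as counted from 0, are printed from 1. Transcripts, exons, introns and start codons were read from the features that the deposited list gives for each peak. Shares have exact Clopper-Pearson 95% intervals. Gene means were compared by exact Wilcoxon rank-sum tests with midranks, checked on simulated data, with Benjamini-Hochberg adjustment over 3 comparisons and a threshold of 0.05 (Python 3.11.15, numpy 2.4.6, pandas 2.3.3, scipy 1.17.1). Of 163 gene names, 160 were RefSeq symbols. Named genes were those with the most or the highest peaks in a class, all 3′ UTR genes, genes in 2 classes, and members of 16 gene lists. The peak class, the lists and the tests were chosen with earlier results of these data known. Sequence windows on chromosome 18 were not used. First exons, introns of other transcripts, exon boundaries, start codons and sequence windows were chosen after the data were examined. Genes named for those features or for overlapping another gene fall partly outside the rule.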

Additional observations from a re-analysis of the deposited data

How the results depend on the processing

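No paired analysis was possible because the deposited list holds 1 value per peak for both replicates, and leaving out a replicate was not run for the same reason. Of 50 alternatives, 44 kept their direction and their side of the threshold, or stayed within 1.5 times a count, the interval of a share or 1 SD over the peaks of a median. Some of the 44 could not change and are no check. Both dropped peaks were 5′ UTR peaks wholly within small RNA genes, so the overlap settings could not alter the coding exon or 3′ UTR counts. Satb1, with peaks in both classes, was already outside the 5′ UTR against near-splice intron comparison, so leaving it out changed nothing there. The lower height of coding exon against near-splice intron genes lost its call at a log2 enrichment of at least 4 (shift −0.25, exact Wilcoxon adjusted p = 0.0685) and with peaks in small RNA genes kept (−0.15, adjusted p = 0.345). Over its alternatives the adjusted p ran from 0.00921 to 0.345. The 5′ UTR against near-splice intron shift turned from −0.04 to 0.090 with those peaks kept (exact Wilcoxon adjusted p = 0.367). This alternative adds only peaks in small RNA genes, which enter mostly the intron class. Up to 1 kb from where the longest overlapping coding transcript begins lay 63.3% of members, 70.7% of 5′ UTR and 59.1% of coding exon peaks. With the nearest start of any coding transcript these shares were 84.5%, 93.9% and 79.6%. Chosen after the data were examined, the first-exon share of coding exon peaks ran from 71.0% to 77.9% and the intron share of 5′ UTR peaks from 54.1% to 59.2%. The number of reads behind a peak is unknown.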
